A study of Mus musculus with 16 samples.

Results

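The 7 genes described here encode subunits of the voltage-gated sodium channels of neurons. They comprise 4 alpha subunit genes (*Scn1a*, *Scn2a*, *Scn3a* and *Scn8a*) and 3 beta subunit genes (*Scn2b*, *Scn3b* and *Scn4b*), and they were taken by symbol from the 32285 genes counted in every library. Nuclei came from frozen microdissected dentate gyrus (DG) of 4 WT mice (genotype VV) and 4 V321L mice (genotype LL), with 2 females and 2 males of each genotype and 1 library per mouse. V321L mice are homozygous for a germline valine to leucine substitution in neuregulin 1 (*Nrg1*), which is present in every cell, and the labels name no treatment. The study used mice of several ages, and the age of the mice of these libraries is not given in the sources used here. RNA and accessible chromatin were read from the same nuclei (10x Multiome), and the RNA was counted as unique molecular identifiers (UMIs).

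An alpha subunit is a large membrane protein that forms the pore, opens when the membrane depolarizes and carries the rising phase of the action potential. Beta subunits are small proteins with 1 membrane-spanning segment that bind an alpha subunit, change its gating and its delivery to the surface, and act in cell adhesion. In cortex and hippocampus *Scn1a* is best known from GABAergic interneurons, *Scn2a* and *Scn8a* from the axon initial segment of excitatory neurons, and *Scn3a* from the developing brain.

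The genes differ greatly in size (mm10, which is GRCm38, spans from RefSeq). The alpha genes are long: *Scn3a* (chr2:65457118-65567591), *Scn2a* (chr2:65620764-65767447) and *Scn1a* (chr2:66270781-66440837) lie in 1 cluster and span 110, 147 and 170 kb, and *Scn8a* (chr15:100869863-101045938) spans 176 kb. The beta genes are short: *Scn2b* (chr9:45117876-45130070) and *Scn4b* (chr9:45138624-45154155) are neighbours 8.55 kb apart and span 12.2 and 15.5 kb, and *Scn3b* (chr9:40269216-40291618) spans 22.4 kb. Nuclear RNA is largely unspliced, so the number of UMIs of a gene can grow with its span, and levels are therefore set against each other between genes as counts-per-million (CPM) per kb of span, where CPM scales a gene's UMIs to all UMIs of a class in a mouse. Counts and CPM without the span describe each gene by itself, and shares of UMIs or sums over genes follow the span as well. The alpha genes are similar in sequence, and how reads that match several of them were counted is not given in the sources used here.

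The upstream sequences differed widely in base composition. RefSeq promoter windows (GRCm38.p6) were found for 5 of the 7 genes. The 250 bases upstream of the first start site in the RefSeq promoter table, which for *Scn8a* lies inside the span given above, are shown for an alpha and a beta gene at each end of that range, 5′ to 3′ on the + strand, with each CpG in capitals.
*Scn2a* chr2:65620519-65620768: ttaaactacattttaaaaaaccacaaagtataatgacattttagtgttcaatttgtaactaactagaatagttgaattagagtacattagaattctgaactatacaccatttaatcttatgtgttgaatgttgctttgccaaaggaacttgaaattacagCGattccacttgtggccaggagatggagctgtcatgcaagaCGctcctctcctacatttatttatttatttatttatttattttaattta
*Scn2b* chr9:45117626-45117875: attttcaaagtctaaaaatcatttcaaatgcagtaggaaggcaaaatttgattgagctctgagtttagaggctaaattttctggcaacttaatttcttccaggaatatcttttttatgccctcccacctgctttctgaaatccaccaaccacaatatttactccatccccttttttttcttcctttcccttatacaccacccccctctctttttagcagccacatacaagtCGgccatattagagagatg
*Scn8a* chr15:100870395-100870644: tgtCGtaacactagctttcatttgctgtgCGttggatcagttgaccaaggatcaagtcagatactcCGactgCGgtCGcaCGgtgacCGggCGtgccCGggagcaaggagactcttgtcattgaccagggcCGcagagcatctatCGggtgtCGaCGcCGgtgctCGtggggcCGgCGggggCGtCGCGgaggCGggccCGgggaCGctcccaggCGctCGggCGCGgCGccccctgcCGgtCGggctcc
*Scn4b* chr9:45138374-45138623: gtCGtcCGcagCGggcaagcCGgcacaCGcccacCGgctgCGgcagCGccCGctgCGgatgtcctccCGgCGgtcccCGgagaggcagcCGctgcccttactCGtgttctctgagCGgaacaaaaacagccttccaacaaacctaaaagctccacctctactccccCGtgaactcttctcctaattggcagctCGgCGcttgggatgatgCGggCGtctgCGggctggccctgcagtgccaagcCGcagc
The *Scn2a* window held 29.6% G or C and 2 CpGs, and the *Scn2b* window 38.4% and 1 CpG. The *Scn8a* window held 68.0% G or C and 30 CpGs, and the *Scn4b* window 66.0% and 23 CpGs. The *Scn1a* window lay between them, with 46.8% and 4 CpGs. The median over 32851 mouse windows of the same length was 52.4% and 6 CpGs. Both strands were searched for motifs of general promoter factors and of a neuronal repressor. CCAAT was in the *Scn1a* and *Scn4b* windows and in 33.8% of all windows. The other motifs were in none of the windows described above. They were TATAAA (in 12.4% of all windows), the Sp factor motif GGGCGG (32.7%), the NRF1 palindrome (0.782%) and TTCAGCACC, a stretch of the REST site (0.301%). The window of a second *Scn2a* start site (chr2:65668436-65668685) held TATAAA, and that of a second *Scn8a* start site held none of the motifs.

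Of the barcodes, 16360 passed as nuclei, with 1776 to 3600 in a WT and 1445 to 1973 in a V321L library. The libraries of the genotypes stood apart. The total RNA count was 4326426 to 14624265 UMIs in WT and 15505354 to 23582057 UMIs in V321L libraries, the median per nucleus 1096.5 to 1923 and 2663 to 4131 UMIs, and the median mitochondrial share 0.0695% to 0.128% and 0.389% to 1.17%. Any pair of libraries shared 1 to 12 nucleus barcodes. Because each of these measures separates the mice completely by genotype, genotype and library properties cannot be told apart. A single substitution cannot be seen in gene counts, so the *Nrg1* level did not check the labels.

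Nuclei were placed in cell classes by UMIs of marker genes, none of which is a channel gene. This gave 6410 WT and 3950 V321L granule cells (GCs), 1164 and 631 CA and mossy neurons, and 196 and 145 GABAergic neurons, the only classes with at least 20 nuclei in every mouse. *Prox1*, the transcription factor that defines GCs, was itself among the gate's markers, so its level describes GCs and does not check the gate. It was at 258 to 293 CPM in WT and 221 to 248 CPM in V321L GCs. The summed level of the 8 GC markers was 8697 to 9812 CPM in WT and 5554 to 6474 CPM in V321L GCs, without overlap, and its part in the genotype differences below was not tested. *Gad2*, which makes GABA, reached no more than 5.59 CPM in GCs and was at 395 to 779 CPM in GABAergic neurons of the 8 mice.

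In WT GCs, the alpha genes took nearly all sodium channel UMIs. *Scn2a* was at 630, 507, 564 and 597 CPM in the mice F1, F2, M1 and M2. *Scn3a* was at 376, 329, 339 and 368 CPM, and *Scn8a* at 353, 342, 353 and 317 CPM. *Scn2a* therefore gave the most UMIs in each mouse. *Scn1a* was at 199, 220, 187 and 204 CPM. Of all alpha UMIs, 39.0% ± 1.90 (SD, n = 4 mice) came from *Scn2a*, 24.0% ± 0.588 from *Scn3a*, 23.2% ± 1.5 from *Scn8a* and 13.8% ± 1.37 from *Scn1a*.

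Of the beta genes, *Scn3b*, whose protein binds alpha subunits without a covalent bond, was at 107, 77.7, 102 and 97.9 CPM in WT GCs. *Scn2b*, whose protein is joined to the alpha subunit by a disulfide bond, was at 19.9, 11.3, 18.2 and 14.5 CPM. *Scn4b*, which is linked in the same way and is known from the resurgent sodium current of fast-firing neurons, had 3 UMIs in 13201713, all in M1. Its pooled level was 0.227 CPM with an exact Poisson 95% interval of 0.0469 to 0.664 CPM, which covers counting error only.

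Per kb of span the order changed. In WT GCs *Scn3b* was at 4.29 ± 0.568 CPM per kb and *Scn2a* at 3.92 ± 0.356 CPM per kb, values within the spread of each other. *Scn3a* followed at 3.20 ± 0.203, *Scn8a* at 1.94 ± 0.0946, *Scn2b* at 1.31 ± 0.313 and *Scn1a* at 1.19 ± 0.0813 CPM per kb, and *Scn2b* and *Scn1a* again overlapped.

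**Figure D1:**
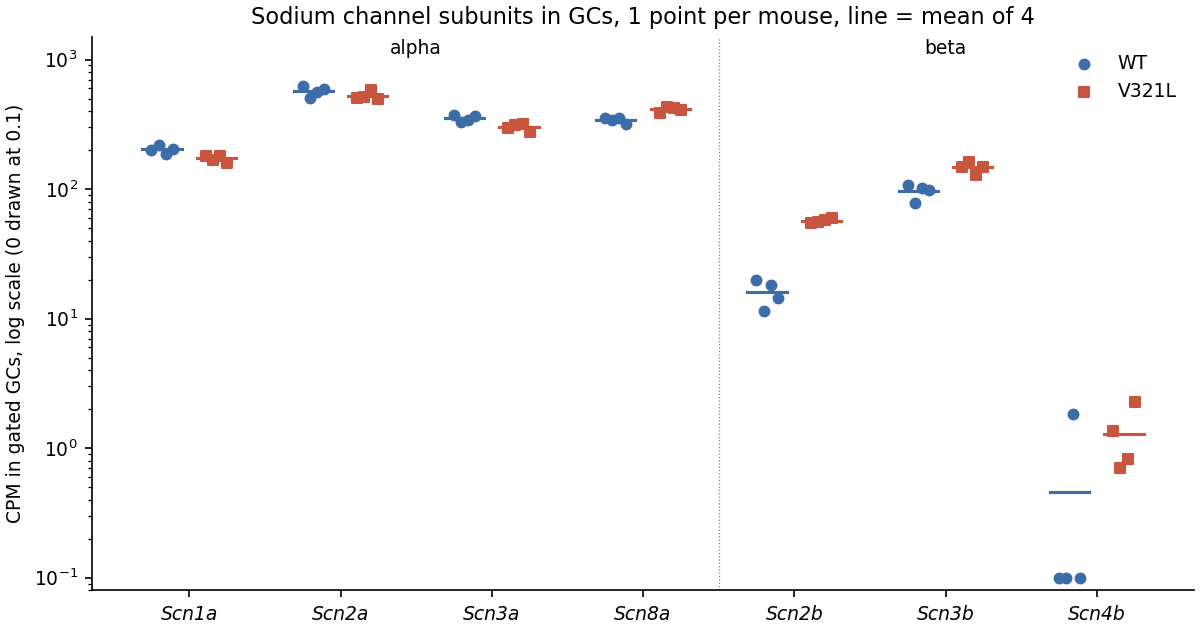
CPM of the 7 subunit genes in GCs on a log axis, with 1 point per mouse (circles WT, squares V321L), a line at the mean of the 4 mice of a genotype, and values of 0 drawn at 0.1. *Scn2b* lay between 11.3 and 19.9 CPM in WT and between 54.6 and 59.6 CPM in V321L mice, while *Scn4b* stayed at or under 2.28 CPM in all mice.

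Which subunits mark GCs among the neurons of the region was asked by comparing classes within WT mice. The plainest differences were in *Scn1a*, which was higher outside GCs, and in *Scn3a* and *Scn3b*, which were higher in GCs. *Scn1a* in GABAergic neurons was at 621, 673, 584 and 660 CPM in the mice F1, F2, M1 and M2, above all GC values. The difference from GCs was 1.46 ± 0.15 on the log2 scale (SE; edgeR quasi-likelihood test, adjusted p = 2.66e-20). In CA and mossy neurons *Scn1a* was at 368, 310, 277 and 245 CPM, also above all GC values, with a log2 difference of 0.58 ± 0.10 (edgeR adjusted p = 9.99e-05).

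*Scn3a* went the other way. It was at 144, 111, 122 and 125 CPM in CA and mossy neurons and at 101, 187, 106 and 162 CPM in GABAergic neurons of WT mice. Every value was below those of GCs. The log2 differences from GCs were -1.48 ± 0.09 (edgeR adjusted p = 1.53e-10) and -1.45 ± 0.19 (edgeR adjusted p = 1.42e-12). *Scn3b* was at 47.4, 34.7, 45.9 and 64.9 CPM in CA and mossy neurons and at 7.76, 28.3, 17.7 and 42.0 CPM in GABAergic neurons, again below every GC value. Its log2 differences were -0.97 ± 0.13 (edgeR adjusted p = 9.91e-06) and -2.0 ± 0.35 (edgeR adjusted p = 1.09e-07).

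*Scn2a* and *Scn8a* separated GABAergic neurons but not CA and mossy neurons from GCs. In GABAergic neurons *Scn8a* was at 202, 215, 212 and 174 CPM, below all GC values, with a log2 difference of -0.95 ± 0.18 (edgeR adjusted p = 2.07e-06). *Scn2a* was at 567, 322, 478 and 480 CPM and its difference of -0.53 ± 0.15 passed the test (edgeR adjusted p = 0.00339). That call ended with DESeq2 (-0.47, adjusted p = 0.0764), without TMM factors (-0.35, adjusted p = 0.0579) and without WT F2 (-0.38, adjusted p = 0.118). In CA and mossy neurons neither passed, at -0.11 ± 0.08 (edgeR adjusted p = 0.303) for *Scn2a* and 0.10 ± 0.09 (edgeR adjusted p = 0.433) for *Scn8a*. *Scn2b* passed in neither class, with 14 UMIs in all WT GABAergic neurons.

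In all, 3 of 6 members tested passed in CA and mossy neurons, where 34.3% of the 10004 genes tested passed, and 5 of 6 in GABAergic neurons, where 26.8% of 9041 did. *Scn4b* was under the filter on low counts in both. The median log2 difference of the 6 members was -0.10 and -0.74, against -0.02 and -0.10 over all genes tested.

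The V321L mice gave a second set of animals for the same comparisons. *Scn1a* was again higher in GABAergic neurons (1.47 ± 0.15, edgeR adjusted p = 4.32e-22) and in CA and mossy neurons (0.67 ± 0.13, edgeR adjusted p = 0.00596) than in GCs. *Scn3a* was lower, by -1.59 ± 0.19 (edgeR adjusted p = 1.35e-15) and -1.33 ± 0.16 (edgeR adjusted p = 0.000607) on the log2 scale. *Scn3b* was lower in GABAergic neurons (-2.54 ± 0.28, edgeR adjusted p = 1.11e-18) but did not pass in CA and mossy neurons (-0.53 ± 0.20, edgeR adjusted p = 0.0907). Here 3 of 7 members passed in CA and mossy neurons and 5 of 7 in GABAergic neurons, against 22.9% and 28.4% of all genes tested.

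*Scn4b* passed the filter on low counts in V321L mice but not in WT mice. In V321L CA and mossy neurons it was at 3.27, 7.29, 9.61 and 6.05 CPM (24 UMIs), and in V321L GCs at 1.34, 0.70, 0.83 and 2.28 CPM (19 UMIs). The values did not overlap, and the log2 difference was 2.45 ± 0.58 (edgeR adjusted p = 0.0166). *Scn4b* passed the filter through CA and mossy neurons alone, the class where it was higher, so this p-value is not independent of the filter. Barcodes with at most 100 UMIs, which hold free RNA rather than nuclei, had *Scn4b* at 1.85 to 5.45 CPM in the same libraries, a range that overlaps both. With so few UMIs these values are a description of a low level, and the count of 3 members that passed above is 2 without *Scn4b*.

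**Figure D2:**
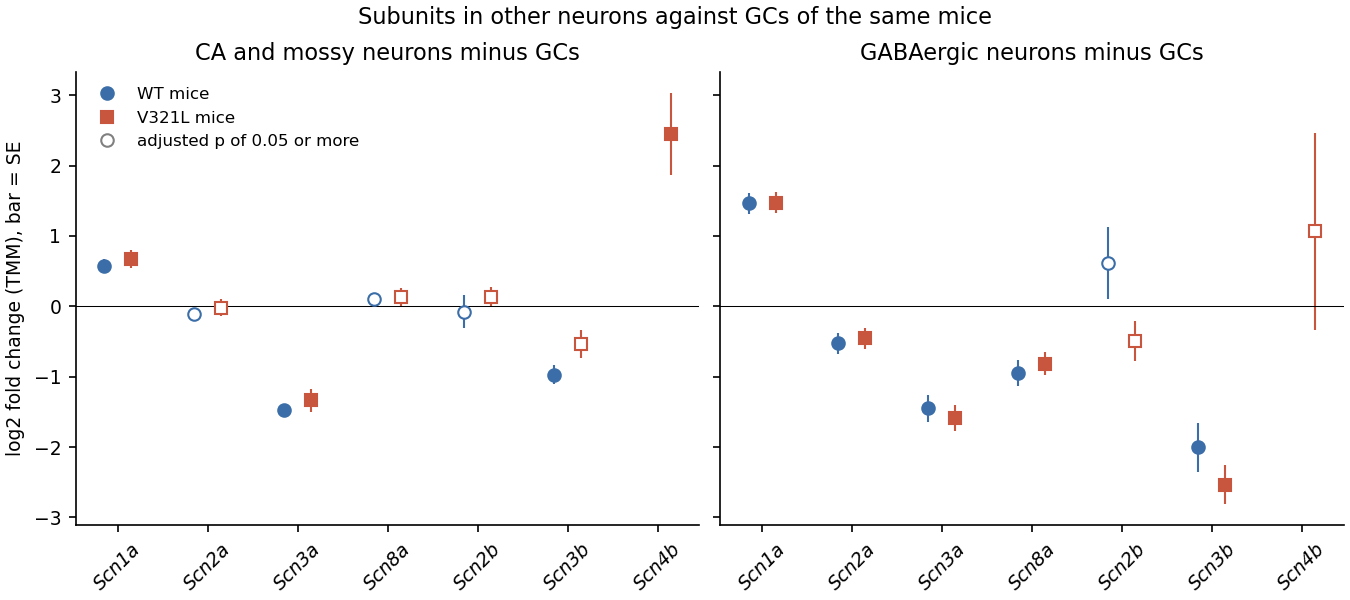
Log2 fold change of each subunit in CA and mossy neurons (left) and GABAergic neurons (right) against GCs of the same mice, with SE bars, circles for the 4 WT and squares for the 4 V321L mice, filled where the adjusted p was under 0.05. *Scn1a* is above 0 in all 4 comparisons (0.58 to 1.47), while *Scn3a* is below 0 in all 4 (-1.33 to -1.59), and *Scn4b* is shown for V321L mice only.

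GABAergic neurons were divided further by markers of medial (MGE) and caudal (CGE) ganglionic eminence origin, which left 100 MGE-type and 63 CGE-type nuclei in WT mice. *Scn1a* was at 647 ± 75 CPM in MGE-type and 691 ± 95.9 CPM in CGE-type nuclei (SD, n = 4 mice), within the spread of each other. *Scn3a* was at 95.7 ± 33.3 CPM and 241 ± 84.1 CPM in the same nuclei, from 30 and 40 UMIs, and *Scn8a* at 225 ± 47.6 CPM and 172 ± 67.4 CPM. These differences were not tested.

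Among the glia of V321L mice, the pooled level of each alpha gene was highest in oligodendrocyte precursor cells (OPCs), a glial class known to carry sodium currents. Pooled over V321L mice, OPCs held *Scn1a* at 237 CPM (exact Poisson 95% interval 185 to 298), *Scn3a* at 198, *Scn2a* at 191 and *Scn8a* at 156 CPM. Astrocytes and radial glia held *Scn1a* at 4.06, *Scn3a* at 8.12, *Scn2a* at 35.2 and *Scn8a* at 54.1 CPM. Oligodendrocytes held *Scn1a* at 10.8, *Scn3a* at 25.6, *Scn2a* at 45.7 and *Scn8a* at 59.2 CPM, and microglia held *Scn2a* at 84.7 and *Scn8a* at 60.0 CPM. In WT mice, where glia were few, *Scn2a* was at 286 CPM in OPCs and at 262 CPM in microglia, the latter from 10 UMIs. *Pdgfra*, the growth factor receptor that defines OPCs, was itself a marker of the gate. It was at 646 to 965 CPM in OPCs and at 0 to 22.6 CPM in oligodendrocytes.

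WT mice held too few glia for a test, with 13 to 31 OPCs each. In V321L mice, with 29 to 52 OPCs and 110 to 207 oligodendrocytes each, all 4 alpha genes were higher in OPCs than in oligodendrocytes of the same 4 mice. *Scn1a* was at 212, 215, 300 and 256 CPM in OPCs of F1, F2, M1 and M2 and at 0 to 37.7 CPM in their oligodendrocytes. Its log2 difference was 4.29 ± 0.52 (edgeR adjusted p = 3.31e-05). *Scn3a* differed by 2.75 ± 0.52 (edgeR adjusted p = 0.000976), *Scn2a* by 1.89 ± 0.40 (edgeR adjusted p = 0.00197) and *Scn8a* by 1.34 ± 0.38 (edgeR adjusted p = 0.0123). *Scn8a* lost the call without V321L F2 (1.01, adjusted p = 0.0626). Of all 4042 genes tested, 40.5% passed and 21.5% were higher in OPCs. This comparison was added after the levels in these classes were seen, so its p-values and counts are not independent of that choice. *Scn1a*, *Scn2a* and *Scn3a* were at 75.4 CPM or less in oligodendrocytes of each V321L mouse. They passed the filter on low counts through OPCs alone, so their calls only describe the levels. Markers of neurons also differed between these glia. The summed MGE-type list was at 2617 to 3046 CPM in OPCs and 33.5 to 219 CPM in oligodendrocytes, the GABAergic list at 2476 to 2836 and 1259 to 1929 CPM, and the CA and mossy list at 780 to 1109 and 91.6 to 468 CPM. In OPCs most of the first came from *Nxph1* (2472 to 2896 CPM) and most of the second from *Erbb4* (2390 to 2818 CPM), while *Gad2* was at 0 to 21.3 CPM and *Lhx6*, which defines MGE-type neurons, at 0. Their part in the result was not tested. The beta genes, with 5 UMIs or fewer each in V321L OPCs, were under the filter.

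**Figure D3:**
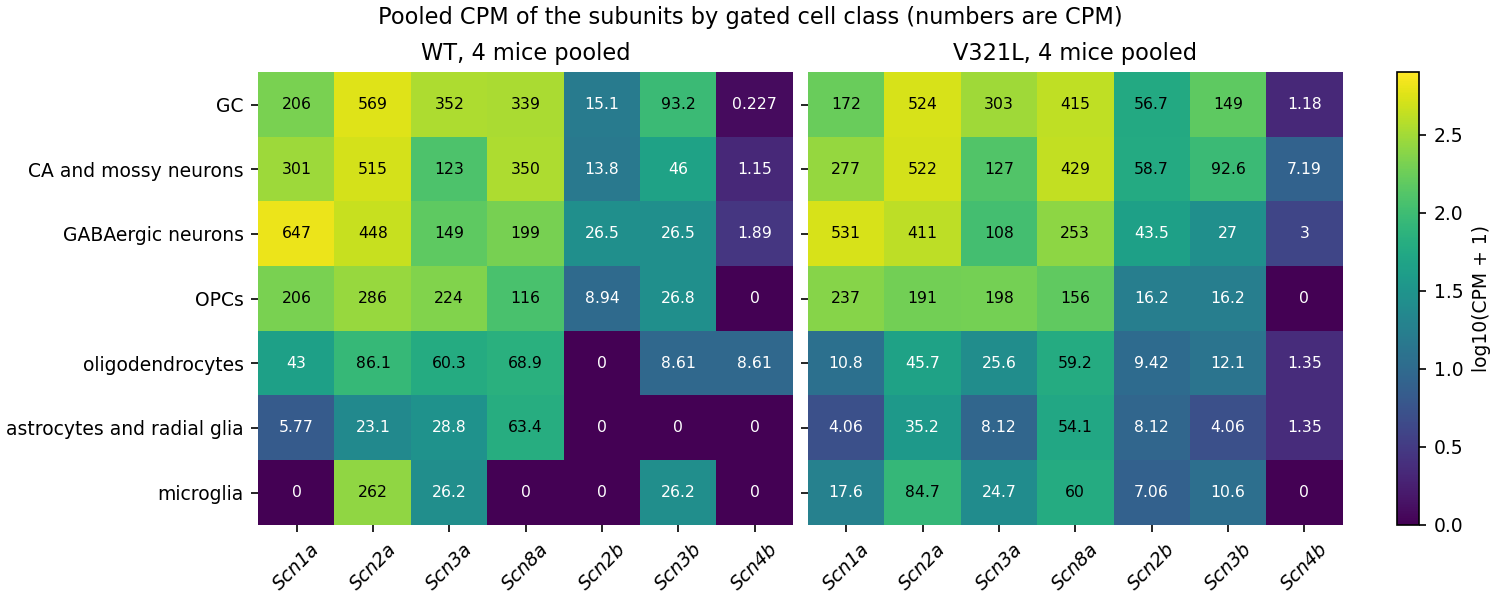
Pooled CPM of the 7 genes in 7 gated cell classes, for the 4 WT mice (left) and the 4 V321L mice (right), printed in each cell and coloured by log10(CPM + 1). *Scn1a* is highest in GABAergic neurons (647 and 531 CPM), and OPCs stand above the other glia for *Scn1a* in both genotypes, although WT glia rest on few UMIs (10 for *Scn2a* in microglia).

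The pattern over classes was also compared with that of 10238 genes, by Pearson's r of log2(CPM + 10) over the 7 classes of pooled WT mice that held at least 20 nuclei. The genes most like *Scn1a* were *Gm1992* (r = 0.989) and *Rnf157* (0.985), those most like *Scn2a* were *Cers6* (0.975) and *Tmem131l* (0.963), and those most like *Scn3a* were *Rogdi* (0.974) and *Kif26b* (0.973). *Scn8a* was most like *Nup93* (0.994) and *Dhdds* (0.987), *Scn2b* most like *Chga* (0.991) and *Tmem229b* (0.989), and *Scn3b* most like *Iqgap2* (0.979) and *Ralgapa2* (0.972). *Scn4b* was under the minimum of 20 CPM in all classes. With 7 points that share libraries, these values only describe the pattern.

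The main comparison of the study is V321L against WT. In GCs, 3 alpha genes were lower and 1 beta gene was higher in V321L mice relative to the TMM reference. *Scn1a* was at 180, 168, 181 and 160 CPM in the V321L mice F1, F2, M1 and M2, below all WT values, with a log2 difference of -0.68 ± 0.12 (edgeR adjusted p = 0.000165). *Scn3a* was at 297, 311, 319 and 277 CPM, also below all WT values, with a difference of -0.67 ± 0.10 (edgeR adjusted p = 5.6e-05). *Scn2a* was at 504, 511, 586 and 498 CPM, which overlapped the WT values. Its difference was -0.57 ± 0.11 (edgeR adjusted p = 0.000352).

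*Scn2b* was at 54.6, 55.5, 58.1 and 59.6 CPM in V321L GCs, above all WT values, with a difference of 1.42 ± 0.15 on the log2 scale (edgeR adjusted p = 2.38e-06). *Scn3b* was at 148, 162, 129 and 149 CPM, above all WT values, but its difference of 0.18 ± 0.10 did not pass (edgeR adjusted p = 0.131). *Scn8a* was at 389, 430, 422 and 410 CPM. These too lay above all WT values, yet the difference relative to the TMM reference was -0.16 ± 0.10 (edgeR adjusted p = 0.152). *Scn4b*, with 19 UMIs in V321L GCs, was under the filter.

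The scaling decided several of these calls. TMM normalization takes the bulk of the genes as its reference, and replacing it by library sizes moved the median log2 difference of all genes from 0.116 to 0.559. With library sizes *Scn8a* turned to 0.27 (adjusted p = 0.00463) and *Scn3b* passed at 0.62 (adjusted p = 0.000414), while *Scn2a* no longer passed at -0.13 (adjusted p = 0.190). *Scn1a* (-0.24, adjusted p = 0.0219), *Scn3a* (-0.23, adjusted p = 0.0185) and *Scn2b* (1.86, adjusted p = 1.46e-06) kept their direction and their call.

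The members' calls stood against a high background. With TMM, 70.3% of the 12313 genes tested in GCs passed, 38.6% higher and 31.7% lower in V321L mice, so that 4 of 6 members is near the background. With library sizes 6636 genes were higher and 2163 lower, against 4757 and 3902 with TMM. On plain CPM, 48.0% of the genes tested were higher without overlap between the mice, and 15.8% were lower.

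Gene span ran through the whole table in the same direction as in the subunits. Of 1132 genes tested with a span of 100 to 200 kb, 70.6% were lower and 4.95% higher, with a median log2 difference of -0.68. The differences of *Scn1a*, *Scn2a* and *Scn3a* (-0.57 to -0.68) lay within the interquartile range of these genes, from -0.98 to -0.30, and *Scn8a* at -0.16 lay above it. Of 2959 genes with a span of 10 to 25 kb, 56.1% were higher and 10.0% lower, with a median of 0.63. There *Scn2b* at 1.42 lay above the interquartile range, from 0.06 to 1.21, and *Scn3b* at 0.18 within it, although the 12.2 kb of *Scn2b* are fewer than the 16.4 kb at the median of these genes. A span was found for 94.6% of the genes tested. The part of the span, the depth and the mitochondrial share in the members' differences was not tested.

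**Figure D4:**
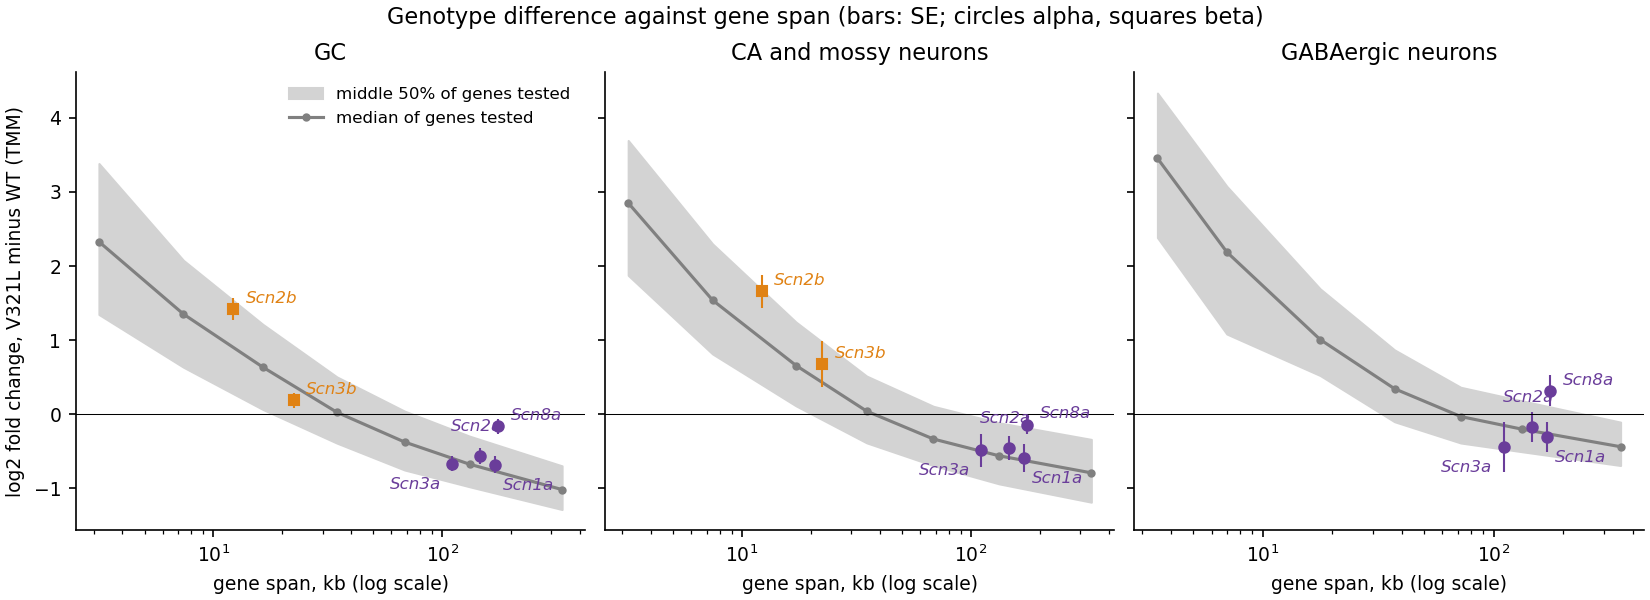
Log2 fold change of V321L against WT (TMM) plotted against gene span in kb on a log axis, for GCs, CA and mossy neurons and GABAergic neurons, where the grey line and band are the median and the interquartile range of all genes tested in each span bin, circles are alpha genes, squares are beta genes, and bars are SE. In GCs the median of all genes ran from 2.33 under 5 kb to -1.02 from 200 kb, with *Scn2b* (1.42) at the upper edge of the drawn band and *Scn8a* (-0.16) above it.

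The level of free RNA differed in the same libraries. In barcodes with at most 100 UMIs, *Scn2a* was at 545 ± 100 CPM in WT and 176 ± 21.6 CPM in V321L libraries (SD, n = 4), and *Scn1a* at 136 ± 21.5 and 44.1 ± 9.24 CPM. *Scn2b* was at 62.4 ± 15.7 and 86.8 ± 7.77 CPM, which in both genotypes was above its level in GCs (16.0 ± 3.82 and 56.9 ± 2.31 CPM). The part of free RNA in the GC values was not tested.

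Summed over subunits, the alpha level in GCs was 1471 ± 67.5 CPM in WT and 1410 ± 72.2 CPM in V321L mice, and the beta level 112 ± 16.7 and 205 ± 13.3 CPM. The ratio of alpha to beta UMIs was 11.8 to 15.7 in WT and 6.37 to 8.04 in V321L mice. Within the alpha UMIs of GCs, which no scaling touches, the share of *Scn8a* was 21.4% to 24.4% in WT and 28.0% to 30.5% in V321L mice, without overlap, while that of *Scn2a* overlapped at 36.3% to 40.4% and 36.0% to 38.9%. How often such ratios and shares separate the genotypes in other sets of genes was not counted. The ratio sets long against short genes, which differed in these directions over all genes tested. The part of the span in it was not tested.

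In CA and mossy neurons 3 of 6 members passed, where 50% of 7918 genes passed. *Scn2b* was at 14.4, 10.4, 17.2 and 17.2 CPM in WT and at 62.2, 65.6, 48.8 and 67.8 CPM in V321L mice, without overlap, as in 34.0% of all genes tested, a log2 difference of 1.66 ± 0.22 (edgeR adjusted p = 0.000191). *Scn1a* differed by -0.59 ± 0.19 (edgeR adjusted p = 0.0225) and *Scn2a* by -0.46 ± 0.17 (edgeR adjusted p = 0.0406), with overlapping CPM values in both. Both calls ended with library sizes (-0.15 and -0.02, adjusted p = 0.486 and 0.925), with nuclei thinned to 1000 UMIs and with a stricter gate. In the thinned nuclei *Scn2b* was not called either. *Scn1a* lost its call in 5 and *Scn2a* in 6 of the 8 fits without 1 mouse. *Scn8a* (-0.14 ± 0.13, and 0.29 with library sizes), *Scn3a* (-0.49 ± 0.22) and *Scn3b* (0.68 ± 0.31) did not pass. Without V321L M1 the last 2 passed, at -0.71 and 0.99 (adjusted p = 0.00287 and 0.00205), and 5 members passed in all. *Scn3b* also passed with library sizes (1.13, adjusted p = 0.0145) and without the filter on low counts (0.71, adjusted p = 0.0214). M1 held 250 of the 631 V321L nuclei of this class. The summed level of the class's own markers was 5047 to 5473 CPM in WT and 2858 to 3622 CPM in V321L mice, and that of the GC markers 748 to 918 and 349 to 680 CPM. The part of the makeup of the class was not tested. *Scn4b*, under the filter, was at 0 to 1.91 CPM in WT (4 UMIs) and, as given above, at 3.27 to 9.61 CPM in V321L mice, also without overlap.

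In GABAergic neurons none of the 4 members tested passed with edgeR, where 30.5% of 3008 genes passed and 1241 genes had an unadjusted p under 0.05. DESeq2 called none of the 4 either. *Scn1a* was at 603, 400, 700 and 389 CPM in V321L mice and overlapped the WT values, with a difference of -0.31 ± 0.21 (edgeR adjusted p = 0.279). *Scn8a* was at 275, 272, 244 and 217 CPM, above all WT values, as were 15.6% of all genes tested, with a difference of 0.32 ± 0.21 (edgeR adjusted p = 0.270). *Scn3a* (-0.44 ± 0.33) and *Scn2a* (-0.17 ± 0.20, and 0.0057 with library sizes) completed the alpha genes. Without V321L F2 *Scn3a* passed at -0.86 (adjusted p = 0.0490). The beta genes were under the filter, although *Scn2b*, at 11.3 to 38.8 CPM in WT and 40.7 to 45 CPM in V321L mice, did not overlap either. MGE-type and CGE-type nuclei numbered 100 and 63 in WT and 45 and 71 in V321L mice, and the summed MGE-type marker level was 3840 to 4325 CPM in WT and 1505 to 2596 CPM in V321L mice. The summed GABAergic marker level was 16812 to 19603 and 10353 to 14526 CPM. The part of this makeup in the values was not tested.

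Whether the genotype difference itself differed between classes was tested with an interaction term. None of 7 members passed for CA and mossy neurons against GCs, where 0.0326% of 12258 genes passed, and none of 6 for GABAergic neurons against GCs, where 1.04% of 11700 passed (edgeR adjusted p from 0.455 to 0.981 and from 0.609 to 1). Nor did the genotype difference of any of 6 members differ between the sexes in GCs, where 0 of 13194 genes passed in edgeR and 352 had an unadjusted p under 0.05. No second tool was run on these terms.

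The share of GCs with at least 1 UMI was compared after thinning each nucleus to 1000 UMIs, which kept 4773 of 6410 WT and 3879 of 3950 V321L GCs. *Scn8a* was found in 29.6%, 28.6%, 28.1% and 27.3% of the GCs of the WT mice F1, F2, M1 and M2 and in 33.6%, 32.6%, 32.5% and 32.2% of those of the V321L mice. *Scn2b* was found in 1.98%, 1.07%, 1.77% and 1.17%, and in 4.89%, 6.24%, 6.47% and 6.18%. *Scn3b* was found in 9.83%, 7.41%, 9.78% and 9.27%, and in 14.1%, 15.7%, 10.5% and 12.4%. For these 3 genes all V321L mice were above all WT mice. How many of all genes separate in this way at this depth was not counted. On plain CPM, 48.0% of the genes tested in GCs were higher in V321L mice without overlap.

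The differences were 4.31 percentage points for *Scn8a*, 4.45 for *Scn2b* and 4.09 for *Scn3b* (two-sided exact permutation test, p = 0.0286 each, the smallest that 4 against 4 mice allow, and 0.0667 after Benjamini-Hochberg adjustment over the 7 genes). *Scn1a* (-1.48 points, exact p = 0.200), *Scn2a* (-2.89, exact p = 0.171) and *Scn3a* (-2.89, exact p = 0.143) did not reach it. Without thinning the means were 43.2% and 75.4% for *Scn8a*, 3.13% and 20.1% for *Scn2b*, and 16.1% and 41.6% for *Scn3b*, and the differences of *Scn1a*, *Scn2a* and *Scn3a* turned positive, at 17.2, 24.3 and 22 points, at the depths given above. With at least 2 UMIs the *Scn2b* difference was 0.07 points (exact p = 0.800).

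As a background for *Scn2b*, the thinned share was 0.499% of 401 astrocytes and radial glia and 0.824% of 364 oligodendrocytes in V321L mice, against 5.90% of their GCs (exact binomial 95% interval 5.18% to 6.69%). In WT mice it was 0 of 53 astrocytes and radial glia. That allows up to 5.66% by an approximate upper 95% limit, 3 over the number of nuclei. The 1.40% of WT GCs could thus not be told from background at this depth. Each limit here pools nuclei over mice and covers counting error only, not the spread between mice. By mouse, the *Scn2b* share of V321L GCs was 4.89% to 6.47%. *Scn4b* was found in 0 of 4773 WT GCs and in 5 of 3879 V321L GCs. The same approximate limit allows up to 0.0629% of WT GCs with a UMI at this depth and does not limit how many hold the RNA.

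GCs with *Sorcs3*, which encodes a sorting receptor, were set against the other GCs because the study describes a cluster of GCs marked by *Sorcs3* as enriched in semilunar granule cells, which it identifies by several genes together. GCs with at least 2 *Sorcs3* UMIs numbered 228 in WT and 173 in V321L mice, and those with none 5821 and 3485. Of 6 members tested, 3 were lower in the *Sorcs3*-positive GCs and none higher, where 6.43% of 10927 genes were lower and 4.15% higher. *Scn3a* was at 332, 218, 217 and 225 CPM in the positive GCs of the WT mice F1, F2, M1 and M2 and at 384, 334, 348 and 384 CPM in the negative GCs. In V321L mice it was at 266, 248, 224 and 260 CPM and at 304, 317, 328 and 281 CPM. It was thus lower in 8 of 8 mice, by 0.48 ± 0.10 on the log2 scale (edgeR adjusted p = 0.000117).

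*Scn3b* was lower in 6 of 8 mice, with means of 85.1 ± 45.5 and 127 ± 30.9 CPM, and its log2 difference of -0.80 ± 0.15 passed (edgeR adjusted p = 8.53e-06). *Scn8a* was lower in 7 of 8 mice, with 319 ± 61.0 and 387 ± 43.4 CPM (-0.40 ± 0.10, edgeR adjusted p = 0.00138). *Scn1a* (-0.19 ± 0.12), *Scn2b* (-0.41 ± 0.24) and *Scn2a* (-0.03 ± 0.09, and 0.05 with library sizes) did not pass. The median over all genes was -0.12.

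Tested within a genotype, 2 members passed in WT mice and 1 in V321L mice, where 4.83% and 5.88% of all genes passed. *Scn3b* passed in both, at -0.86 ± 0.26 (edgeR adjusted p = 0.0267) and -0.66 ± 0.18 (edgeR adjusted p = 0.0103). *Scn3a* passed in WT mice alone (-0.52 ± 0.15, edgeR adjusted p = 0.0207, against -0.31 ± 0.13, edgeR adjusted p = 0.208), and the difference between the genotypes was not tested. *Scn8a* passed in neither (-0.29 ± 0.15 and -0.36 ± 0.12, edgeR adjusted p = 0.405 and 0.0600). *Sorcs3*-positive GCs were deeper, with a median of 1654.5 to 3451 UMIs against 1090 to 1913 in WT and 4160 to 5335.5 against 3188 to 4684 in V321L mice. At 1000 UMIs per nucleus the 3 calls held and *Scn1a* joined them (-0.68, adjusted p = 0.0318). In that fit 713 of the 8791 genes tested were lower and 128 higher, with a median log2 difference of -0.36.

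**Figure D5:**
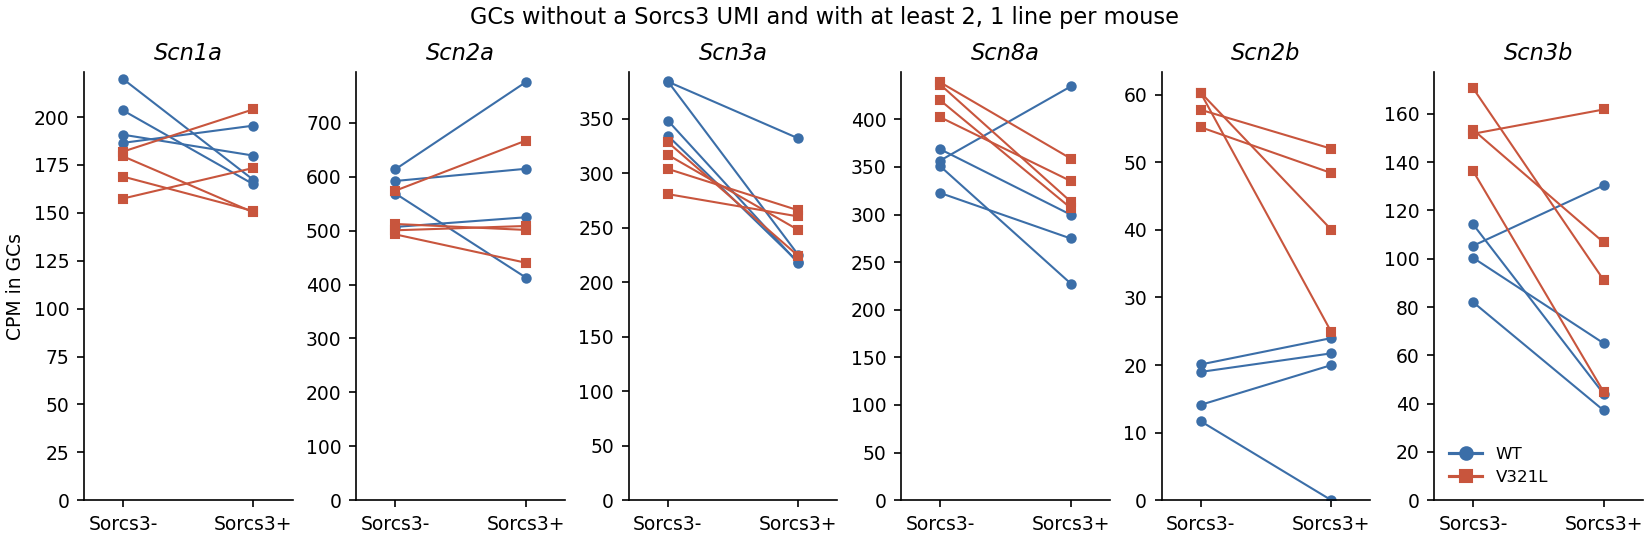
CPM of 6 subunits in GCs without a *Sorcs3* UMI (left of each panel) and with at least 2 (right), 1 line per mouse, circles and blue for WT, squares and red for V321L. *Scn3a* is lower on the right in 8 of 8 mice and *Scn8a* in 7 of 8, while *Scn2a* is lower in 3 and higher in 5.

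Open chromatin at the start sites was read from the ATAC counts of the same GCs. A peak reached within 1000 bases of the first start site in all 8 libraries for *Scn2a* (chr2:65620369-65621212), *Scn8a* (chr15:100870303-100871251), *Scn3b* (chr9:40268789-40269715) and *Scn4b* (chr9:45138165-45139155). The windows printed above for *Scn2a*, *Scn8a* and *Scn4b* lie inside these regions, so that a peak was called at the AT-rich *Scn2a* start in as many libraries as at the CpG-rich starts. *Scn2b* had a peak in 7 libraries, *Scn3a* in 6 and *Scn1a*, at 1 of its start sites, in 3. The peak of *Scn2b* was missing in V321L M2, and that of *Scn3a* in V321L F1 and M2. These libraries had the fewest peaks of all (42140 in F1 and 36556 in M2), and the part of ATAC depth was not tested.

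The *Scn3b* region held 83.6 ± 2.67 CPM in WT and 79.9 ± 4.45 in V321L GCs, and the *Scn8a* region 70.6 ± 2.58 and 78.3 ± 3.11. The *Scn8a* values, 68.0 to 74.1 in WT and 74.5 to 81.4 in V321L mice, did not overlap, but the log2 difference of 0.13 ± 0.10 did not pass (edgeR adjusted p = 0.737). How many of all regions separate without overlap was not counted. The *Scn2a* region held 24.6 ± 2.18 and 20.6 ± 3.97 (-0.31 ± 0.17, edgeR adjusted p = 0.617). The *Scn4b* region held 14.4 ± 2.71 and 13.5 ± 2.03 (-0.14 ± 0.22, edgeR adjusted p = 0.882). It gave 31 to 82 ATAC counts per mouse in GCs that held almost no *Scn4b* UMIs. Peaks were called over whole libraries and no closed region was read as a background, so openness in GCs was not tested. None of the 4 regions passed, where 0.0196% of 25570 regions passed and 2285 had an unadjusted p under 0.05. *Scn3b* differed by -0.08 ± 0.10 (edgeR adjusted p = 0.857).

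Sodium channels act with anchoring and modulating proteins, and 25 such genes were read as a list. In V321L against WT GCs 18 were tested, of which 4 were higher, 11 lower and 3 did not pass relative to the TMM reference. Their median was -0.76 on the log2 scale. Of all genes tested 38.6% were higher and 31.7% lower, with a median of 0.116, and the part of gene span was not tested. The smallest rise was that of *Sptbn4*, a spectrin of the axon initial segment (0.41 ± 0.11, edgeR adjusted p = 0.00469). The largest fall was that of *Scn9a*, an alpha subunit best known from sensory neurons (-1.90 ± 0.29, edgeR adjusted p = 6.32e-05). The smallest relative to the TMM reference was that of *Ank3*, which encodes the anchoring ankyrin G (-0.44 ± 0.12, edgeR adjusted p = 0.00594). With library sizes in place of TMM the median of all genes was 0.559, as given above. Whether the calls of this list, that of *Ank3* among them, hold with library sizes was not checked, so they do not show a lower CPM.

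In WT mice, 6 of the 19 related genes tested were higher and 3 lower in CA and mossy neurons than in GCs, where 34.3% of all genes passed in either direction. *Cntn2*, a contactin, had the largest positive difference (6.94-fold, edgeR adjusted p = 0.000233) and *Scn9a* the largest negative difference (-1.49 ± 0.19, edgeR adjusted p = 4.49e-06). *Cntn2* was at 6.94 to 11.5 CPM in CA and mossy neurons (31 UMIs) and at 0.21 to 3.64 CPM in GCs (17 UMIs). It passed the filter on low counts through CA and mossy neurons alone, so its p-value is not independent of the filter. In GABAergic neurons 3 were higher and 6 lower, where 26.8% of all genes passed. *Fgf13*, a cytosolic partner of the alpha subunits, had the largest positive difference (3.64 ± 0.14, edgeR adjusted p = 7.07e-136), and *Kcnq3*, a potassium channel that binds the same ankyrin, the largest negative difference (-1.30 ± 0.16, edgeR adjusted p = 1.58e-15). In *Sorcs3*-positive GCs 4 of 18 were lower and none higher, against 6.43% lower and 4.15% higher of all genes, led by *Scn9a* (-1.44 ± 0.35, edgeR adjusted p = 0.00079). In OPCs against oligodendrocytes of V321L mice 6 of 14 were higher and 6 lower, where 40.5% of all genes passed and 21.5% were higher. They ran from *Fgf14* (4.13 ± 0.75, edgeR adjusted p = 0.000726) to *Cntn2* (-6.57 ± 0.53, edgeR adjusted p = 1.92e-06). As given above, this comparison was added after levels were seen, so these p-values and counts are not independent of that choice. Whether *Fgf14* and *Cntn2* passed the filter on low counts through 1 class alone was not checked.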

How the data were processed

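The deposited RNA and ATAC counts per barcode were made by the authors with Cell Ranger ARC 2.0.2 on mm10 and are not normalized, with peaks called in each library. Barcodes within the study's limits on UMIs, genes and mitochondrial share, with at least 500 ATAC counts, were kept, and doublets scored by Scrublet (scanpy 1.11.5) above the mean + 2 SD were removed. A nucleus joined the class that held at least 2 UMIs of at least 2 markers and 50% of its marker UMIs. Counts summed per mouse went into edgeR 4.0.16 (R 4.3.3, quasi-likelihood F test, TMM, filter on low counts, Benjamini-Hochberg over all genes, 0.05), with mouse as a block between classes. DESeq2 1.42.0, other scalings, filters, gates, depths and leaving out each mouse were the alternatives. Tested on simulated data with 200 genes changed by 1 on the log2 scale, the GC genotype comparison recovered 62% with 5 false calls. The self-test of GABAergic neurons against GCs recovered 16% with 0 false calls, and that of the genotypes in GABAergic neurons 68% with 12 false calls. Gene spans came from RefSeq by symbol. Named were the 7 members, the related genes with the largest and smallest change in a direction, and the 2 genes most like each member. A result that this rule names is not reported here. Members and lists were chosen with earlier results of these data known.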

Additional observations from a re-analysis of the deposited data

Results flagged for a closer look

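In groups of 4 mice, a mouse was singled out where its gap to the nearest other mouse took most of the group's range, a test that chance meets in about 1 of 20 groups. Of 42 groups tested, 3 met it. *Scn2a* in V321L GCs was at 586 CPM in M1 and between 498 and 511 CPM in the other mice. *Scn4b* in WT GCs was at 1.82 CPM in M1, from 3 UMIs, and at 0 in the other mice. *Scn4b* in WT GABAergic neurons was at 17.7 CPM in M1, from 1 UMI, and at 0 in the other mice. Where all other mice are at 0, any UMI in 1 mouse meets the rule, so the rate of about 1 in 20 does not hold for the *Scn4b* groups. WT M1 was the WT library with the fewest GC UMIs (1646862).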

How the results depend on the processing

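Of 49 single values, 23 kept their direction and their side of the threshold under each alternative run, among them *Scn1a*, *Scn3a* and *Scn2b* between the genotypes in GCs, *Scn1a* and *Scn3a* between classes, and *Scn3b* in *Sorcs3*-positive GCs. Depth limits the beta genes most, with 14 UMIs each of *Scn2b* and *Scn3b* in WT GABAergic neurons.

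With library sizes in place of TMM, the genotype difference of *Scn8a* turned to 0.27 in GCs and 0.29 in CA and mossy neurons, that of *Scn2a* in GABAergic neurons to 0.0057, and *Scn2a* in *Sorcs3*-positive GCs to 0.048. Library sizes also moved the split of calls to 3182 higher and 843 lower genes in CA and mossy neurons (2059 and 1902 with TMM) and 654 and 232 in GABAergic neurons (507 and 409), to 1219 and 1111 in GABAergic neurons against GCs (1013 and 1413) and to 530 and 504 in *Sorcs3*-positive GCs (453 and 703). With nuclei thinned to 1000 UMIs, 0 members passed between the genotypes in CA and mossy neurons, *Scn8a* there turned to 0.32, *Scn2a* in GABAergic neurons to 0.34, and *Scn2b* in CA and mossy neurons against GCs to 0.019. With the stricter gate 1 member passed there, and *Scn2b* against GCs was 0.0031. In V321L mice *Scn2b* against GCs was 0.14 in CA and mossy neurons and -0.49 in GABAergic neurons.

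In *Sorcs3*-positive GCs *Scn2a* was 0.073 from at least 1 *Sorcs3* UMI, 0.0805 in WT mice and 0.025 in V321L mice, *Scn1a* was 0.052 from at least 1 UMI, and 1 member passed in V321L mice. With all UMIs of a nucleus the share of GCs rose in V321L mice for 7 members, by 17.2 points for *Scn1a*, 24.3 for *Scn2a* and 22 for *Scn3a*. The cause was not tested for any of these.

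Leaving out each mouse in turn gave 1 to 5 members in CA and mossy neurons and 0 to 1 in GABAergic neurons between the genotypes, *Scn2b* from -0.18 to 0.0598 in CA and mossy neurons against GCs, and *Scn2a* from -0.0688 to 0.0047 in *Sorcs3*-positive GCs. The *Scn3b* share lost its p under 0.05 without any 1 WT mouse (3.53 to 4.34 points).

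Calls over all genes moved by more than 1.5 times, or changed their split, in these cases. Thinning left 575 higher and 536 lower genes between the genotypes in CA and mossy neurons, 47 and 26 in GABAergic neurons, 907 and 946 in CA and mossy neurons against GCs (1704 and 1730), and 470 and 797 in GABAergic neurons against GCs. Without the filter 1229 and 629 genes were called in GABAergic neurons between the genotypes. DESeq2 called 1182 and 1045 in CA and mossy neurons and 951 and 869 in GABAergic neurons against GCs. In *Sorcs3*-positive GCs 226 and 165 genes were called in WT and 400 and 277 in V321L mice, 128 and 713 after thinning, and 628 and 600 from at least 1 *Sorcs3* UMI.

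The labels number the mice F1 to M2 in both genotypes. Same-numbered mice deviated together with correlations of 0.03, 0.27, -0.12 and 0.06, so the numbers were not read as pairs. With a replicate block 4 members passed in GCs, 3 in CA and mossy neurons, 0 in GABAergic neurons and 0 promoter regions, as without it, and *Scn2b* in GCs was 1.44.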
